A study of Homo sapiens with 6 samples.

Results

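The Wnt and beta-catenin feedback genes described here are 10 genes chosen by name: CTNNB1, which encodes beta-catenin, and AXIN2, NKD1, NOTUM, DKK1, DKK4, LGR5, RNF43, TNFRSF19 and GLUL, known targets of beta-catenin in liver or in other Wnt-responsive tissues. All 10 were found among the 26475 genes of the deposited table, and all 10 were among the 12902 genes with enough counts to be tested. Expression was measured by RNA-seq in 6 libraries of growing HepG2 cells, a human liver cancer line. TAF2-expressing HepG2 cells (3 libraries) were set against eGFP-expressing HepG2 cells (3 libraries). TAF2 is a subunit of TFIID, the general transcription factor that marks the start sites of RNA polymerase II genes, and eGFP is a green fluorescent reporter protein. The labels name no other treatment or genotype, and they do not say which promoter drove either protein, whether the cells were a clone or a pool, or whether a group's libraries are from separate cultures. The p-values thus cover the spread among these 6 libraries alone, and that spread may be technical.

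In the Wnt pathway, a secreted Wnt protein binds a Frizzled receptor together with LRP5 or LRP6 and stops a destruction complex, built on AXIN and APC, from marking beta-catenin for degradation. Beta-catenin then enters the nucleus and switches on genes with TCF and LEF factors, and several of these genes encode inhibitors that feed back on the pathway at the ligand, the receptor or the destruction complex. In the adult liver the pathway is known for setting the gene programme of hepatocytes around the central vein. HepG2 cells are known to carry a deletion in CTNNB1 that removes the phosphorylation sites through which beta-catenin is marked for degradation. In this line the pathway is known to be active without ligand, but its activity was not measured directly in either group. Counts per gene do not separate the deleted from the intact allele.

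Total counts ranged from 22276308 to 28024004 per library. TAF2 itself held 50.1, 48.3 and 47.4 CPM in the TAF2 libraries (counts scaled to a library total of 1000000) and 35.8, 40.4 and 37.5 CPM in the eGFP libraries, a 1.28-fold difference with no overlap. All 8 hepatocyte markers examined (such as ALB and HNF4A) were detected, and their summed level was 38604 to 40421 CPM in TAF2 libraries and 48168 to 49656 CPM in eGFP libraries. All 8 were called lower with TAF2, against 22.4% of all tested genes. ALB and AFP lie on chromosome 4, where the median log2 fold change of 357 genes of at least 5 CPM was -0.18. APOA1 lies on chromosome 11, where that of 593 genes was -0.27. The log2 fold changes were -0.62 for ALB, -0.14 for AFP and -0.82 for APOA1. The other markers lie on chromosomes with medians of -0.0008 to 0.08. Markers of leukocytes summed to at most 0.0405 CPM with 4 of 5 at 0, and markers of endothelial cells to at most 0.714 CPM in TAF2 and 1.08 CPM in eGFP libraries, with KDR and STAB2 at 0. The fibroblast and stellate cell list summed to 66.2 to 70.6 CPM in TAF2 and 55.1 to 58.6 CPM in eGFP libraries, most of it from ACTA2 and PDGFRB, while DCN and LUM were at 0. Of its 3 tested genes PDGFRB was called higher (19.5 CPM in TAF2 and 7.87 CPM in eGFP libraries, log2 fold change 1.32), as was COL1A1 (1.13 on the log2 scale), and ACTA2 was not called (-0.05). The part of these shifts in the results on the feedback genes was not tested. In bulk libraries of a cell line, a change in some cells and a change in all cells cannot be told apart.

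Of the 10 feedback genes, 5 rose with TAF2 (NOTUM, LGR5, TNFRSF19, AXIN2 and RNF43), 3 fell (DKK4, GLUL and DKK1) and 2 were not called (CTNNB1 and NKD1). A gene is called here when the adjusted p of edgeR's quasi-likelihood test is under 0.05 after Benjamini-Hochberg adjustment over all tested genes. Calls were common in this comparison: 43.0% of all tested genes were called, 20.6% higher and 22.4% lower, and among the 2372 genes with a mean level inside the range of the 9 better expressed feedback genes 59.1% were called. The TAF2 and eGFP libraries did not overlap for 9 of the 10 genes, against 50.6% of all tested genes and 64.9% of those in that range of levels. Of these 9 genes 6 were higher and 3 lower with TAF2, against 24.5% higher and 26.1% lower without overlap among all tested genes. The changes were small. The median log2 fold change of the 10 genes was 0.10, against -0.00 for all tested genes, and the median absolute log2 fold change was 0.18, against 0.13 for all tested genes.

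**Figure D1:**
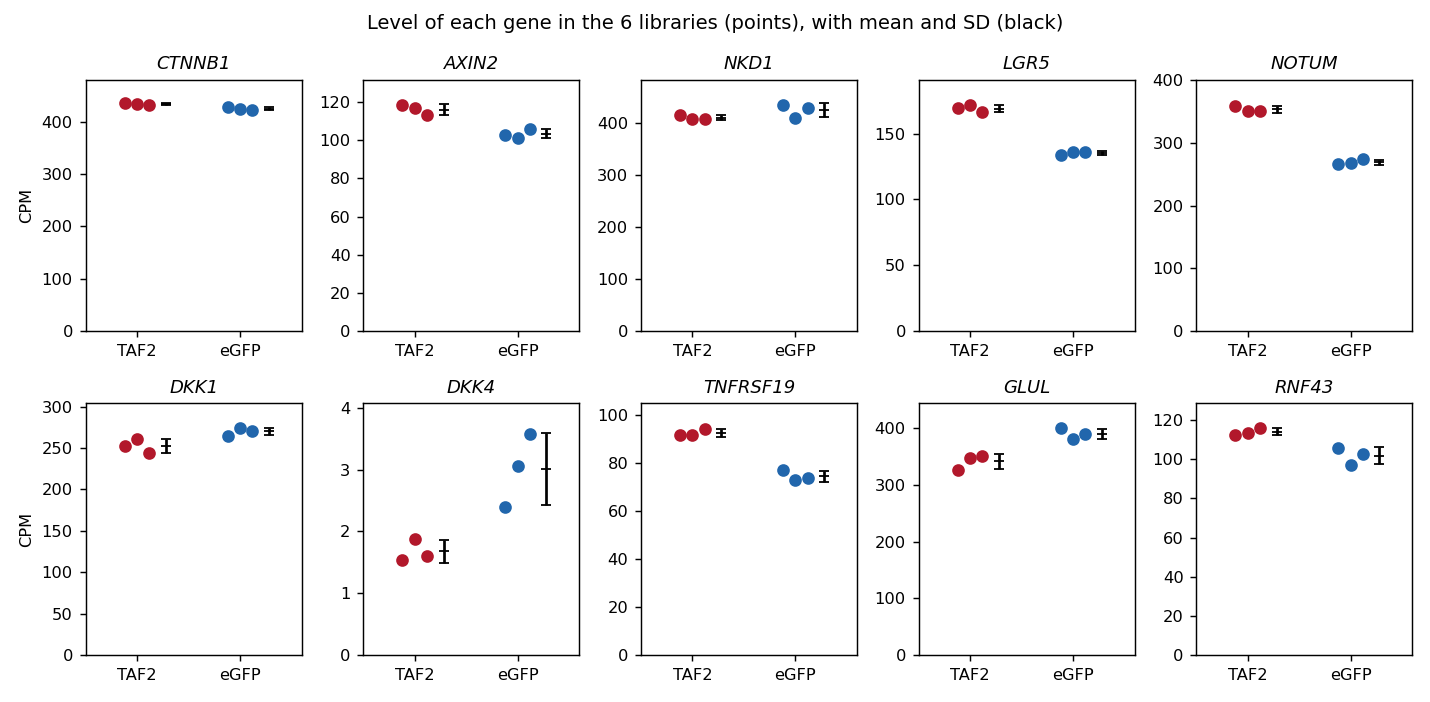
Level of each of the 10 feedback genes in CPM (vertical axes from 0), with a point per library, TAF2 in red on the left and eGFP in blue on the right, and the mean with SD in black (n = 3 each). NOTUM, LGR5 and TNFRSF19 show the widest gaps upward, and the NKD1 points of the groups overlap.

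CTNNB1 (chromosome 3, 41199505 to 41240443, plus strand; all positions are on GRCh38.p14) differed little between the groups. It held 435, 434 and 431 CPM in the TAF2 libraries and 428, 424 and 423 CPM in the eGFP libraries. Every TAF2 library lay above every eGFP library, but by a margin of a few CPM. Its log2 fold change was 0.03 (95% confidence interval -0.01 to 0.07), and the gene was not called (edgeR adjusted p = 0.285). The protein, which the pathway controls by degradation, was not measured. The gene overlaps ULK4 in the annotation.

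Of the 2 intracellular feedback genes, AXIN2 rose and NKD1 was not called. AXIN2 encodes a scaffold of the destruction complex and is a widely used readout of beta-catenin activity. It lies on the minus strand of chromosome 17, 65528563 to 65561648. Its level was 118, 117 and 113 CPM in the TAF2 libraries and 102, 101 and 106 CPM in the eGFP libraries, so the groups did not overlap. This 1.12-fold difference is 0.17 on the log2 scale (SE 0.030, edgeR adjusted p = 1.32e-05).

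NKD1 (chromosome 16, 50548396 to 50649249, plus strand) encodes a protein that binds Dishevelled and dampens Wnt signalling. It held 415, 408 and 408 CPM in the TAF2 libraries and 434, 409 and 429 CPM in the eGFP libraries. The eGFP replicate 2 value lay inside the TAF2 range, so the groups overlapped. Its log2 fold change was -0.05 (95% confidence interval -0.10 to -0.0025, unadjusted p = 0.0394 and adjusted p = 0.0826 by edgeR). Without eGFP replicate 2 the adjusted p was 0.0147, at a log2 fold change of -0.07, so whether NKD1 is called rests on that library.

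The secreted inhibitors moved in opposite directions. NOTUM, an enzyme that removes the lipid from Wnt proteins and so inactivates them, had the largest rise of the 10 genes, and DKK1 and DKK4, Dickkopf proteins that block the LRP co-receptors, fell. NOTUM (chromosome 17, 81952507 to 81961187, minus strand) held 360, 350 and 350 CPM in the TAF2 libraries and 267, 268 and 274 CPM in the eGFP libraries. The lowest TAF2 library was thus well above the highest eGFP library. The difference was 1.31-fold (log2 fold change 0.39, SE 0.023, edgeR adjusted p = 5.18e-18).

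DKK1 (chromosome 10, 52314281 to 52317657, plus strand) fell slightly. It held 253, 261 and 245 CPM in the TAF2 libraries and 265, 274 and 271 CPM in the eGFP libraries. The highest TAF2 library stood just below the lowest eGFP library. On the log2 scale the difference was -0.09 (SE 0.025, edgeR adjusted p = 0.00184). Of the 8 called feedback genes it had the smallest change, and its adjusted p ran from 0.00145 to 0.0429 over the other ways of processing.

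Sequence upstream of an annotated start site was at hand for 5 of the 10 genes (CTNNB1, DKK1, TNFRSF19, GLUL and RNF43), in 8 windows of 250 bases from RefSeq (GRCh38.p14). It is shown for DKK1 and RNF43, the genes whose windows hold a core of the TCF and LEF recognition sequence, searched as CTTTGA and CTTTGT on both strands. The window of DKK1 (chr10:52314031-52314280, plus strand) ends at the base before the start site, with capitals marking the TCF and LEF cores and the match to TATAAA, the core of the TATA box:
DKK1: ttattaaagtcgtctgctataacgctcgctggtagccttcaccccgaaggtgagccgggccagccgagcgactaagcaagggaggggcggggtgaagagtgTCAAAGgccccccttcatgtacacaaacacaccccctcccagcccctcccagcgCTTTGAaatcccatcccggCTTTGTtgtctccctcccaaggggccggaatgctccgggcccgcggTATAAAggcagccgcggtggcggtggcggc
It holds CTTTGA on the opposite strand at -149 to -144 relative to the start site (read as TCAAAG above), CTTTGA on the gene's strand at -95 to -90 and CTTTGT at -76 to -71. TATAAA stands at -30 to -25. Cores of this length are common: 22.8% of 35116 windows of the same length held CTTTGA or CTTTGT on either strand, and 10.7% held TATAAA. A match is a description of the letters and not evidence of binding.

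DKK4 (chromosome 8, 42374063 to 42391322, minus strand) was scarce and had the largest relative change of the 10 genes. It had 38, 48 and 45 counts in the TAF2 libraries and 65, 68 and 89 counts in the eGFP libraries. These are 1.54, 1.88 and 1.61 CPM in the TAF2 libraries and 2.40, 3.06 and 3.57 CPM in the eGFP libraries. The groups did not overlap, and the eGFP libraries spread more widely, with a coefficient of variation of 19.5% against 10.9% in the TAF2 libraries. Its log2 fold change was -0.84 (SE 0.186, 95% confidence interval -1.21 to -0.46, edgeR adjusted p = 0.000275). At this depth the size of the fall is poorly fixed.

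The genes of the cell surface rose. LGR5 is a receptor for R-spondins, secreted proteins that strengthen Wnt signals, and RNF43 is a ubiquitin ligase that removes Frizzled receptors from the surface unless R-spondin and an LGR receptor restrain it. LGR5 (chromosome 12, 71439129 to 71586310, plus strand) held 169, 171 and 166 CPM in the TAF2 libraries and 134, 136 and 136 CPM in the eGFP libraries. Values were tight within each group and did not overlap. The difference was 1.25-fold (log2 fold change 0.32, SE 0.026, edgeR adjusted p = 1.19e-13). LGR5 overlaps TSPAN8 in the annotation, which averaged 1.25 CPM.

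RNF43 (chromosome 17, 58352500 to 58417534, minus strand) rose by less. It held 113, 114 and 116 CPM in the TAF2 libraries and 106, 97.0 and 103 CPM in the eGFP libraries. The eGFP libraries varied more than the TAF2 libraries, but the groups did not overlap. The rise was 0.16 on the log2 scale (SE 0.031, edgeR adjusted p = 4.20e-05). SUPT4H1, a neighbour annotated on the same strand and overlapping RNF43, averaged 68.9 CPM, and the sources used here do not say how the authors' counting shared reads between them.
The window before the outermost annotated start of RNF43 (chr17:58417535-58417784, minus strand, read in the direction of the gene) has capitals at its single match, CTTTGT, at -90 to -85:
RNF43: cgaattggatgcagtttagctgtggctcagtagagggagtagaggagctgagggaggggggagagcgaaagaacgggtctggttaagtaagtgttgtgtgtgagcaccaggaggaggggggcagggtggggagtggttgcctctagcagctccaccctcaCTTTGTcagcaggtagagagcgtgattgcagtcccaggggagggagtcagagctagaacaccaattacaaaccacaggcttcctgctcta
A second RNF43 window, before an internal start, holds CTTTGT on the opposite strand at -135 to -130. The windows of CTNNB1, TNFRSF19 and GLUL hold neither these cores nor TATAAA. Of the 2 genes with a core, RNF43 rose and DKK1 fell.

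TNFRSF19, also called TROY, is a member of the tumour necrosis factor receptor family that is known as a beta-catenin target in stem cells of the gut. It lies on the plus strand of chromosome 13, 23570412 to 23676093. It held 91.6, 91.4 and 94.1 CPM in the TAF2 libraries and 76.9, 72.7 and 73.6 CPM in the eGFP libraries. The groups were clearly apart, with a 1.24-fold difference (log2 fold change 0.31, SE 0.034, edgeR adjusted p = 2.81e-10).

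GLUL, glutamine synthetase, joins ammonia to glutamate in the hepatocytes next to the central vein and is a widely used liver marker of beta-catenin activity. Unlike AXIN2 and LGR5 it fell. It lies on the minus strand of chromosome 1, 182378098 to 182391790, and held 326, 347 and 351 CPM in the TAF2 libraries and 400, 381 and 389 CPM in the eGFP libraries. The highest TAF2 library stayed below the lowest eGFP library, and TAF2 replicate 1 was the lowest. On the log2 scale GLUL differed by -0.19 (SE 0.025, edgeR adjusted p = 1.55e-07). The annotation lists 4 GLUL pseudogenes, none with a row in the table, so reads from such copies could have been given to GLUL.

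**Figure D2:**
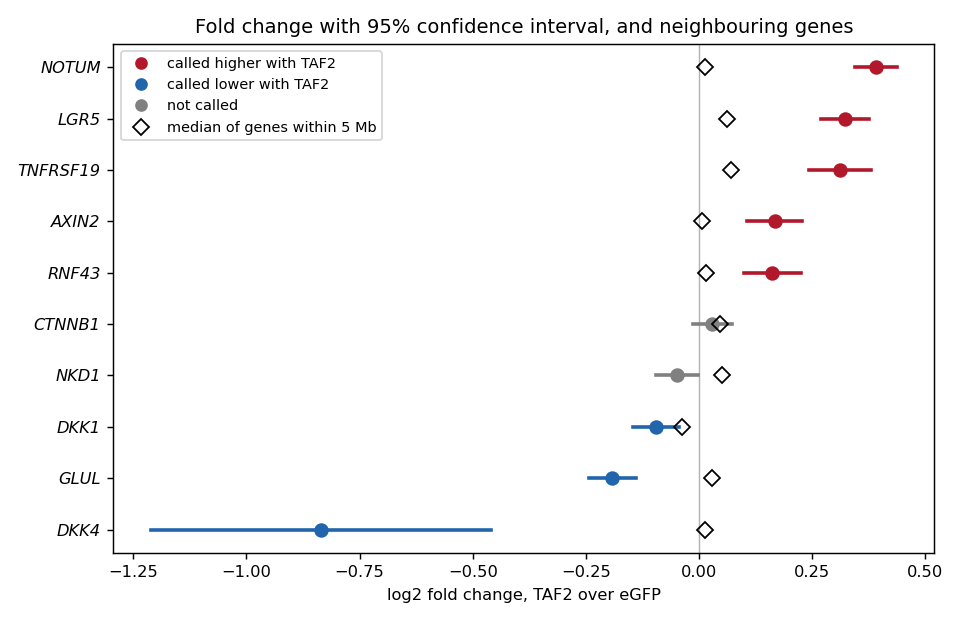
Log2 fold change of TAF2 over eGFP libraries for the 10 feedback genes (filled points; red called higher, blue called lower, grey not called) with 95% confidence intervals, beside the median log2 fold change of tested genes within 5 Mb of each gene (open diamonds). The neighbour medians lie between -0.04 and 0.07, while the 8 called genes lie between -0.84 and 0.39.

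Parts of the genome shifted as a whole in this comparison, so each feedback gene was set beside its neighbours, the tested genes of at least 5 CPM within 5 Mb. Near NOTUM the median log2 fold change of 78 neighbours was 0.01, near AXIN2 0.01 (46 genes) and near RNF43 0.02 (46 genes). Near LGR5 it was 0.06 (24 genes) and near TNFRSF19 0.07 (31 genes). Each of these 5 genes thus lay above the median of its neighbours, by 0.15 to 0.38 on the log2 scale. Calls were also common among the neighbours, as among all tested genes, of which 43.0% were called, 20.6% higher and 22.4% lower. Near NOTUM 20 were called higher and 16 lower, near AXIN2 12 and 11, and near RNF43 9 and 9. Near LGR5 7 were called higher and 2 lower, and near TNFRSF19 10 and 2. GLUL fell in a neighbourhood with a median of 0.03 (30 genes) and DKK4 in one with 0.01 (34 genes). For DKK1 the neighbours had a median of -0.04 (15 genes), and the gene differed from it by -0.06. Within 2 Mb of DKK1 (4 genes) the difference was -0.01, and within 2 Mb of GLUL it was -0.35 against -0.22 within 5 Mb. CTNNB1 differed by -0.02 from the median of its 42 neighbours (0.05) and NKD1 by -0.10 from that of its 27 (0.05). Within 2 Mb the difference of CTNNB1 was -0.06. These differences from the neighbours carry no test.

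Levels of different genes were compared per length, as CPM per kb of the GENCODE transcripts matched to the accessions listed in the table, averaged over transcripts. NOTUM was highest in the TAF2 libraries at 152 ± 2.33 CPM per kb, followed by DKK1 at 141 ± 4.61, CTNNB1 at 129 ± 0.594, GLUL at 77.9 ± 3.08 and LGR5 at 47.7 ± 0.732 (SD, n = 3). In the eGFP libraries DKK1 was highest at 151 ± 2.64 CPM per kb, followed by CTNNB1 at 126 ± 0.810, NOTUM at 116 ± 1.74, GLUL at 89.0 ± 2.15 and LGR5 at 38.2 ± 0.395 (SD, n = 3). NOTUM thus stood below DKK1 and CTNNB1 in every eGFP library and above both in every TAF2 library. TNFRSF19, AXIN2, NKD1 and RNF43 followed at 20.7 to 27.7 CPM per kb in TAF2 and 18.5 to 24.8 CPM per kb in eGFP libraries. Within these 4, TNFRSF19 and AXIN2 overlapped in the TAF2 libraries, and AXIN2 and NKD1 in the eGFP libraries. DKK4 was lowest, at 1.88 ± 0.204 CPM per kb in TAF2 and 3.37 ± 0.657 in eGFP libraries (SD, n = 3). The sources used here do not give the lengths behind the authors' counts. The matched NKD1 transcript has 17105 bases, so a shorter model would raise its level in this order, and the transcripts of TNFRSF19 range from 1625 to 4277 bases.

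**Figure D3:**
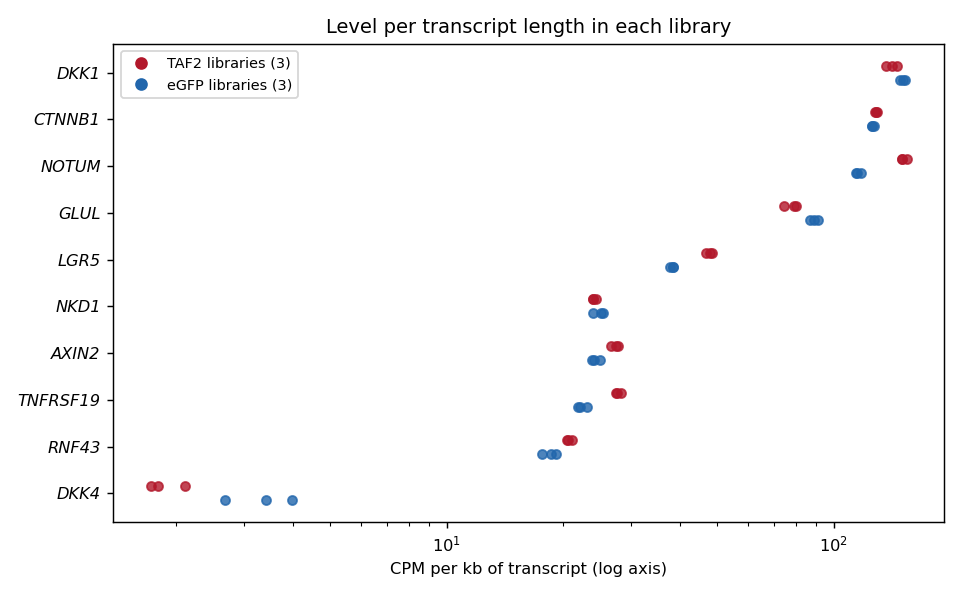
Level of each feedback gene per transcript length (CPM per kb, log axis) in the 3 TAF2 libraries (red, upper row of each gene) and the 3 eGFP libraries (blue, lower row), ordered by the eGFP mean. NOTUM is above DKK1 and CTNNB1 in the TAF2 libraries and below both in the eGFP libraries.

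The 5 genes outside this group whose log2 CPM over the 6 libraries, centred on the gene's own mean, lay nearest to AXIN2 were XPO4, FAM207A, ABCC1, NUSAP1 and NECAB3. Their root-mean-square distances to AXIN2 ran from 0.0113 to 0.0161 log2 units over the 6 libraries, among 10349 genes of at least 5 CPM. Among the feedback genes the nearest was RNF43 at 0.0468 log2 units. With 2 groups, such likeness reflects mostly a similar difference between TAF2 and eGFP, and the 5 genes had log2 fold changes of 0.14 to 0.19.

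The wider pathway was described with 8 lists of other genes, ordered by role and chosen with earlier results of these data known. Of 126 listed genes 78 were tested, of which 22 rose and 21 fell, so 55.1% were called against 43.0% of all tested genes. Their median log2 fold change was -0.01, against -0.00 for all tested genes.

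**Figure D4:**
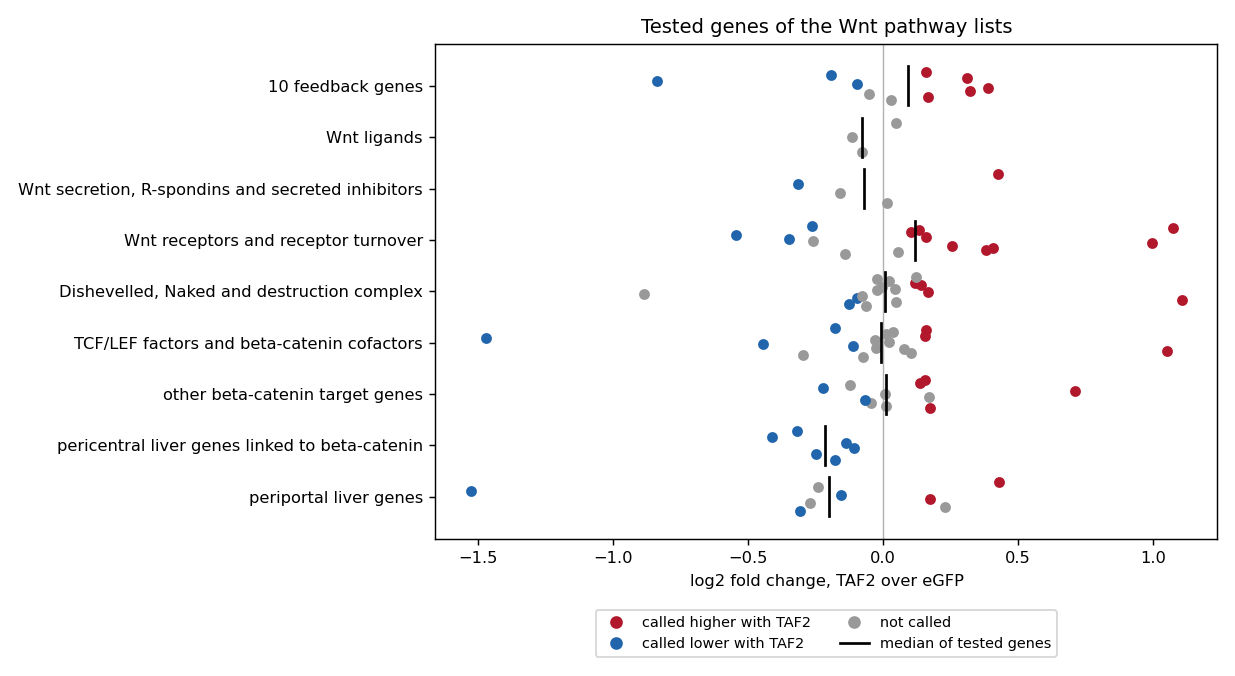
Log2 fold change of TAF2 over eGFP libraries for every tested gene of the 10 feedback genes and of 8 lists of other Wnt pathway and liver zonation genes (red called higher, blue called lower, grey not called), with the median of each list as a black line. The 6 tested pericentral genes all lie below 0, and the receptor list holds calls on both sides.

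Wnt ligands were scarce. Of 19 listed genes 3 were tested, with a median log2 fold change of -0.08. By edgeR 0 of the 3 were called, against 43.0% of all tested genes, and 0 had an unadjusted p under 0.05. DESeq2 also called 0. WNT3 held 15.5 ± 0.277 CPM in TAF2 and 16.4 ± 0.317 CPM in eGFP libraries, and WNT7B 1.01 ± 0.284 CPM in TAF2 and 1.11 ± 0.143 CPM in eGFP libraries (SD, n = 3 each).

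Of 18 genes for Wnt secretion, R-spondins, secreted inhibitors and co-receptors of such inhibitors 4 were tested, with a median of -0.07 on the log2 scale. The 1 higher and 1 lower were both co-receptor genes, and the other 2 tested genes were not called. The share called was 50.0%, against 43.0% of all tested genes. KREMEN1, a Dickkopf co-receptor, fell to 38.6 ± 0.826 CPM in TAF2 libraries, against 47.9 ± 2.20 CPM in eGFP libraries (log2 fold change -0.31, edgeR adjusted p = 1.67e-07). Its relative KREMEN2 averaged 3.11 CPM in TAF2 and 2.28 CPM in eGFP libraries (log2 fold change 0.43, edgeR adjusted p = 0.0441), a call that was lost without TAF2 replicate 1 or 2 or eGFP replicate 2 or 3 (adjusted p = 0.117 to 0.182), with DESeq2 (0.135) and without the robust step (0.0656).

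Receptors and genes of receptor turnover held the most calls among the lists with more than 10 tested genes, 8 higher and 3 lower of 14 tested (78.6%, against 43.0% of all tested genes), at a median of 0.12 on the log2 scale. The Frizzled receptor genes FZD4 and FZD5 rose. FZD4 held 255 ± 4.39 CPM in TAF2 and 195 ± 7.12 CPM in eGFP libraries (log2 fold change 0.38, edgeR adjusted p = 3.41e-16), and FZD5 held 148 ± 3.29 CPM in TAF2 and 112 ± 3.20 CPM in eGFP libraries (0.41, adjusted p = 1.27e-15; SD, n = 3 each). LGR4, an R-spondin receptor related to LGR5, fell. It held 130 ± 3.87 CPM in TAF2 and 189 ± 1.96 CPM in eGFP libraries (log2 fold change -0.54, SE 0.027, edgeR adjusted p = 1.27e-20). LRP5, a Wnt co-receptor, also fell, with 345 ± 2.39 CPM in TAF2 and 439 ± 3.82 CPM in eGFP libraries (-0.35, edgeR adjusted p = 3.32e-17). LGR4, LRP5 and FZD4 all lie on chromosome 11, where the median of 593 genes was -0.27. The neighbours of LGR4 had a median of -0.28, those of LRP5 -0.27 and those of FZD4 -0.22, so LRP5 was close to its neighbours and FZD4 rose among genes that were lower. FZD5 lies in a part of chromosome 2 where the median of 18 neighbours was 0.16.

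Of the 16 tested Dishevelled and destruction complex genes 4 rose and 2 fell (37.5% called, against 43.0% of all tested genes), with a median log2 fold change of 0.01. NKD2, the relative of NKD1, rose by 1.11 at a low level, with 2.63 ± 0.399 CPM in TAF2 and 1.21 ± 0.451 CPM in eGFP libraries (SD, n = 3 each; edgeR adjusted p = 5.18e-05). The kinase gene GSK3A (0.17) and FBXW11 (0.14), a subunit of the ligase that marks beta-catenin, rose. AXIN1, the constitutive relative of AXIN2, had a log2 fold change of -0.09 (edgeR adjusted p = 0.00732), opposite in sign to AXIN2.

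Among TCF and LEF factors and cofactors 3 rose and 4 fell of 16 tested, with a median of -0.00. The share called was 43.8%, close to the 43.0% of all tested genes. CTNNBIP1, a protein that keeps beta-catenin from TCF factors, fell to 65.1 ± 1.04 CPM in TAF2 libraries, against 88.5 ± 0.784 CPM in eGFP libraries (log2 fold change -0.44, edgeR adjusted p = 1.82e-14; SD, n = 3 each). It lies in a part of chromosome 1 where the median of 58 neighbours was -0.18. HNF4A, a hepatocyte factor, had -0.18, while the chromatin remodeller CHD8 (0.16) and the cofactor gene AES (0.16) rose.

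Other known beta-catenin targets went both ways, with 4 higher and 2 lower of 11 tested and a median of 0.01. Of these 11 genes 54.5% were called, against 43.0% of all tested genes. BMP4, a secreted growth factor, held 138 ± 4.43 CPM in TAF2 and 84.0 ± 0.901 CPM in eGFP libraries (log2 fold change 0.71, edgeR adjusted p = 8.78e-23; SD, n = 3 each). MYC (0.18), ETS2 (0.16) and MET (0.14) also rose. The 2 called lower were ID2 (-0.22) and SOX9 (-0.07), and SOX9 overlapped between the groups. DESeq2 called 1 target of this list lower.

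The pericentral liver genes fell with GLUL. Of 10 listed genes 6 were tested, and all 6 fell, with a median of -0.21 on the log2 scale, against 22.4% of all tested genes called lower. The list was chosen with earlier results of these data known, so this share is a description and not a test. All 6 were below 0 in each alternative fit, but DESeq2 called 3 of them. The fits without TAF2 replicate 2, TAF2 replicate 3 or eGFP replicate 3 each called 4. RGN, which encodes regucalcin, held 21.6 ± 1.06 CPM in TAF2 and 26.9 ± 0.277 CPM in eGFP libraries (log2 fold change -0.32, edgeR adjusted p = 9.67e-06; SD, n = 3 each). SLC1A2, a glutamate transporter, had -0.25, which is near the median of its neighbours on chromosome 11 (-0.30). OAT, ornithine aminotransferase, had -0.11, and CYP1A1, at 3.17 CPM in TAF2 and 4.21 CPM in eGFP libraries, had -0.41. The call of CYP1A1 was lost without TAF2 replicate 3 or eGFP replicate 3 (edgeR adjusted p = 0.0649 and 0.136) and with DESeq2 (adjusted p = 0.0841), and that of OAT without TAF2 replicate 2 (adjusted p = 0.0587). RHBG (-0.18) and AHR (-0.13) were also tested and were not among the 3 that DESeq2 called. The AHR values overlapped between the groups. CYP2E1, CYP1A2, LECT2 and NR1I3 had too few counts to be tested.
Periportal genes fell in 3 and rose in 2 of 8 tested, with a median of -0.20. The share called was 62.5%, against 43.0% of all tested genes. HAL, histidine ammonia-lyase, fell by 1.52 on the log2 scale, to 7.41 ± 0.711 CPM in TAF2 libraries, against 21.4 ± 2.45 CPM in eGFP libraries (edgeR adjusted p = 1.11e-16; SD, n = 3 each). ASS1 had -0.16, while CPS1 (0.17) and CDH1 (0.43) rose. The 17 neighbours of CPS1 on chromosome 2 had a median of 0.21, above the change of CPS1 itself. The fall of the 8 hepatocyte markers given above moved in the same direction as GLUL and the pericentral genes, and its part in their fall was not tested. Among those markers ALB, AFP and APOA1 lie on chromosomes 4 and 11, whose medians were also below 0.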

How the data were processed

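Gene expression was measured by RNA-seq in 6 HepG2 libraries, 3 TAF2 and 3 eGFP, made with an Illumina TruSeq RNA kit per the labels' protocols. The authors deposited expected counts per gene without normalization. The submitters' processing notes name RSEM and hg38, and the sources used here do not give the aligner, the annotation release or the strand setting. Totals were 22276308 to 28024004 counts. Counts were rounded, filtered with filterByExpr and scaled by TMM (edgeR 4.0.16, R 4.3.3), then compared with the robust quasi-likelihood test with group as the only term and Benjamini-Hochberg adjustment over 12902 genes. SEs were derived from the F statistic. The common dispersion was 0.000758. CPM use TMM-scaled totals of the tested genes. Alternatives were other scalings, DESeq2 1.42.0, other filters, unrounded counts, no robust step, a replicate block and leaving out each library.

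Genes were placed on GRCh38.p14 by RefSeq accession, and profiles were compared as log2(CPM + 0.5). The 10 genes and all lists were chosen with earlier results of these data known. Beyond the 10 genes, those named are up to 4 called genes with the smallest p in each list (without calls, up to 2 by CPM), TAF2 and the 5 profiles nearest to AXIN2. Cell type markers, overlapping genes, untested genes and the called genes ID2, SOX9, RHBG and AHR are named as context. Within a group, any 2 libraries differed beyond sampling noise (chi-square over degrees of freedom of 1.98 or more), and none was merged.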

Additional observations from a re-analysis of the deposited data

How the results depend on the processing

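All 8 called feedback genes kept their direction and call under each of the 14 alternative fits: 3 scalings or tools other than TMM with edgeR (RLE, upper-quartile, DESeq2), 2 filters, unrounded counts, no robust step, a replicate block, and 6 fits without 1 library. CTNNB1 stayed uncalled in all 14. NKD1 was called only without eGFP replicate 2, with log2 fold changes of -0.068 to -0.029 over the fits without 1 library. Called feedback genes numbered 8 or 9, called genes of the 8 other lists 34 to 43, and all called genes 4307 with DESeq2 to 5732. With upper-quartile scaling 3001 of all tested genes were higher, against 2662 with TMM. With the replicate block 5250 genes were called in all, 8 of them feedback genes, and NKD1 had a log2 fold change of -0.05 (edgeR adjusted p = 0.137). Same-numbered libraries did not deviate together (correlations of -0.224 to -0.143 over 10349 genes), so the numbers were not taken as pairs. With neighbours within 2 Mb in place of 5 Mb, the medians moved to -0.0086 near AXIN2, 0.085 near CTNNB1, -0.084 near DKK1 (4 genes), 0.156 near GLUL, -0.026 near LGR5, 0.0050 near NOTUM, 0.034 near RNF43 and 0.135 near TNFRSF19. The cause of these moves was not tested, and fewer genes enter each median. Of the 34 other genes named by rule, 3 lost their call in some of the 14 fits. KREMEN2 kept its call in 8 fits, CYP1A1 in 11 and OAT in 13. WNT7B, not called, ran from -0.27 to 0.097 over the fits without 1 library, changing sign without TAF2 replicate 1. Of the 10 feedback genes depth limits DKK4 most, at 38 to 89 counts a library.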
